A study of Homo sapiens with 2 samples.

Results

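Hormone release from a secretory granule is carried out by a set of proteins that bring the granule to the plasma membrane and fuse the membranes. A list of 54 genes by name held this machinery together with related SNAREs of internal membranes: the SNAREs, the proteins that bind and prime them, the synaptotagmins, the small Rab GTPases with their effectors, and a vesicle glycoprotein. Names were matched to the rows of the expression table, which holds 19989 genes, and 52 of the 54 were found. SYTL4 and RIMS2 have no row in the table used here. The cells were hNCI-H716 L-cells, an established line from a human colorectal adenocarcinoma of the cecum that serves as a model of the GLP-1 secreting L-cell. They grow in suspension and were plated on Matrigel, left 24 h to attach, and then kept for 48 h in DMEM with serum that held low (5.5 mM) or high (25 mM) glucose. Polyadenylated RNA was sequenced with a kit that does not mark strand, in 1 library per glucose concentration, so the data are 2 libraries with no replicate. The values are CPM, estimated read counts scaled to a common library total and then by a TMM factor for each library (0.998 and 1.002). The steps of the deposited values show total estimated counts of 21757660 in low glucose and 19456420 in high glucose. All 95% intervals given here (exact Poisson for a CPM, exact binomial for a ratio or a share) cover counting error only, and each comparison is between 2 libraries, not between glucose concentrations in general.

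The core of the machinery is a bundle of SNARE helices. Syntaxins and SNAP-25 family proteins on the target membrane supply helices with a central glutamine (Q-SNAREs), and a VAMP on the vesicle supplies one with a central arginine (R-SNARE). Priming factors and syntaxin-binding proteins prepare the bundle, complexins clamp and promote it, synaptotagmins couple it to calcium, and NSF with its SNAP adaptors takes it apart for reuse, and in the L-cell this route releases GLP-1.

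The stretch around the central residue, the zero layer, is what places a gene among the Q- or R-SNAREs, and it is shown for the SNAP and VAMP paralogs that the values below compare most closely. Each run is 39 bases of the coding sequence of the principal transcript in GENCODE release 29 (GRCh38), 5′ to 3′ on the coding strand, with the zero-layer codon in capitals (glutamine in SNAP25 and SNAP23, arginine in VAMP2 and VAMP3). SNAP25 and SNAP23 each contribute a pair of helices, so each has an upstream and a downstream window.
SNAP25, upstream, exons 4 and 5, chr20:10284748-10293174, plus strand, with the intron left out: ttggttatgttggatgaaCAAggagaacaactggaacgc
SNAP23, upstream, exons 4 and 5, chr15:42513423-42515250, plus strand, with the intron left out: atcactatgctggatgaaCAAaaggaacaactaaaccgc
SNAP25, downstream, exon 7, chr20:10299362-10299400, plus strand: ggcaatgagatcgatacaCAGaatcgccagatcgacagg
SNAP23, downstream, exon 7, chr15:42529769-42529807, plus strand: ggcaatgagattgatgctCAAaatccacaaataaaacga
VAMP2, exon 3, chr17:8161704-8161742, minus strand: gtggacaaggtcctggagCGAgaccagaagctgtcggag
VAMP3, exon 3, chr1:7777184-7777222, plus strand: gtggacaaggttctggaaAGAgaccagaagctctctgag
The VAMP2 and VAMP3 windows shared 34 of 39 bases, and those of SNAP25 and SNAP23 shared 28 upstream and 27 downstream. In the upstream SNAP windows an intron splits the stretch, and in the other windows it lies within 1 exon.

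The label of the cells was checked against marker genes. Of 13 L-cell and granule markers, 11 had a row (PYY and NEUROD1 have none in the table used here) and all 11 were at 1 CPM or more, summing to 5201 CPM in low and 4992 CPM in high glucose. GCG, which encodes proglucagon, was the most abundant of them, at 1954 CPM in low and 1808 CPM in high glucose. Secretory granule genes were present as well, with CHGA at 704 and 653 CPM and the prohormone convertase PCSK1 at 555 and 600 CPM. Of the 11 markers 7 (63.6%) differed beyond counting error, against 31.7% of all genes and 38.4% of those at 10 CPM or more. That share rises with counts, so abundant markers pass at small ratios, as GCG did at -0.11 with 42458 and 35239 counts. GCG, CHGA, CHGB, SCG3 and SCG5 were lower and PCSK1 and SCGN higher in high glucose, at log2 ratios from -0.56 for SCG5 to 0.27 for SCGN. Markers of other cells were not all low. Of 6 absorptive and goblet cell markers, 4 had a row and summed to 325 and 280 CPM, led by TFF3 (207 and 155 CPM) and SI (117 and 124 CPM), which differed in opposite directions beyond counting error, with MUC2 at 0.334 and 0.269 CPM and no row for FABP1 or ALPI. For fibroblasts, 4 of 5 markers had a row and summed to 996 and 928 CPM, led by COL3A1 at 815 and 742 CPM (lower beyond counting error) and LUM at 177 and 181 CPM (within it), with COL1A2 at 3.74 and 4.94 CPM, whereas COL1A1 had 0.0582 and 0.115 CPM, both under the limit that a count of 0 allows (0.138 and 0.154 CPM), and DCN has no row. Leukocyte markers had rows for 2 of 5 and summed to 441 and 414 CPM, nearly all LYZ (441 and 413 CPM, lower beyond counting error), and PTPRC and CD3E have no row. Neuronal markers had rows for 6 of 8 and summed to 327 and 345 CPM, led by TUBB3 (240 and 260 CPM), which was higher in high glucose beyond counting error, whereas GAD1 was lower (23.97 and 19.7 CPM), and RBFOX3 and SLC17A6 have no row. SYN1, which stands in the neuronal list, is also a vesicle gene. The part of these markers in the results below was not tested, and in RNA from a whole culture fewer cells of a type and less RNA per cell cannot be told apart.

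Of the 52 genes with a row, 47 (90.4%) averaged 1 CPM or more over the libraries, against 65.3% of all genes in the table. The members were chosen with earlier results of these data known, so this share is a description only. Among the further pathway genes described below, 53 of the 65 with a row averaged 1 CPM or more. All 47 genes of the set also reached 1 CPM in each library. Every role had at least 1 gene above that level. The 5 genes below it were VAMP8, STXBP6, UNC13D, DOC2A and SYTL1, with counts of 3 to 17 in either library. Summed over the genes with a row, the set made up 2357 CPM in low and 2354 CPM in high glucose. To compare genes with each other, CPM were divided by the length of the merged exons, giving CPM per kb. On that scale 23 of the 47 genes lay above the median of 11600 genes at a mean of 1 CPM or more (6.17 CPM per kb), 1 lay in the top 10% (STX1A) and 4 in the bottom 10% (STXBP5L, CADPS, RAB3B and SYT13), so the set ran from trace to high levels and did not sit at one end of the transcriptome. The order within a role group was the same in both libraries in 5 of the 8 groups that hold more than 1 gene at 1 CPM or more.

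**Figure D1:**
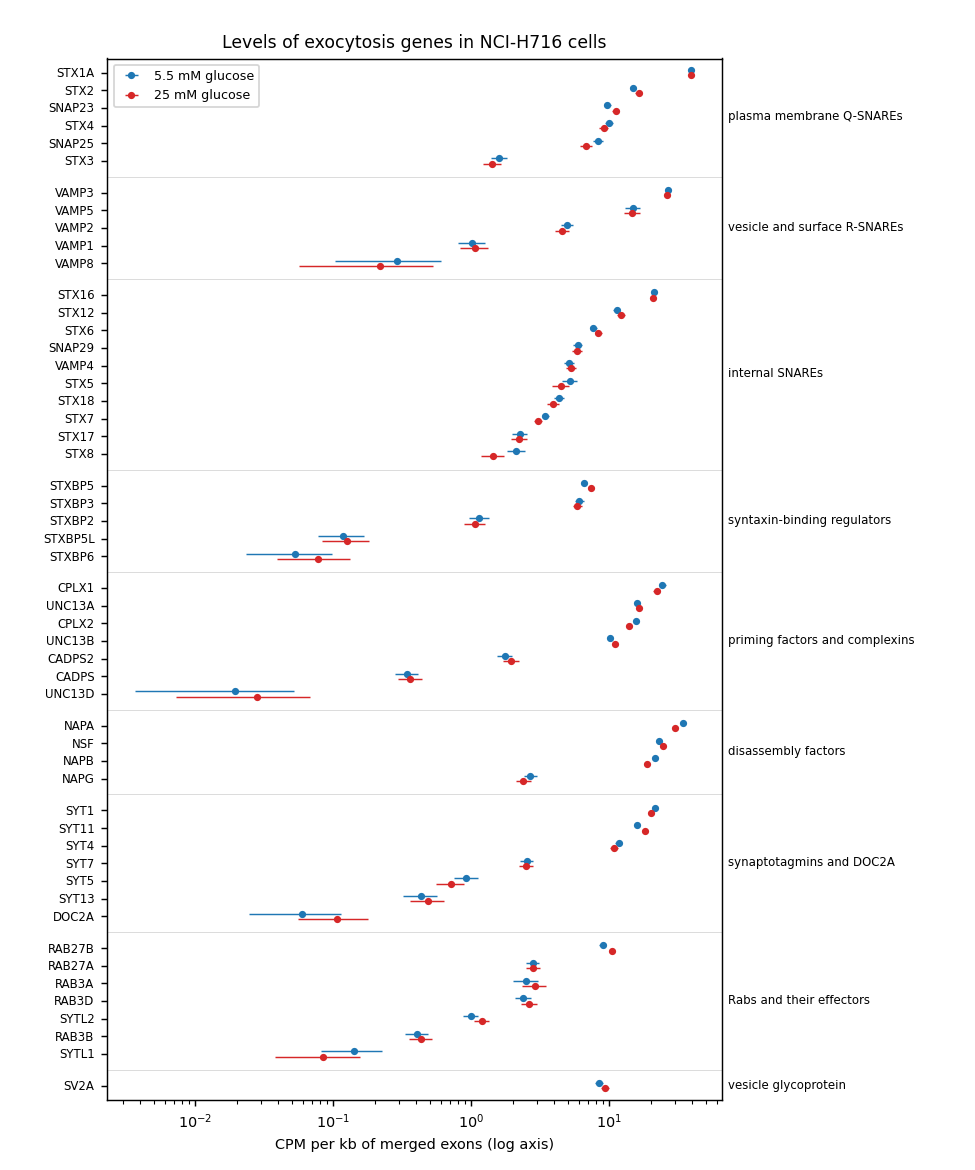
CPM per kb of merged exons (log axis) for the 52 genes with a row, by role, in the low (5.5 mM, blue) and high (25 mM, red) glucose library, with 95% counting intervals as bars. STX1A lies furthest right, at 38.9 and 39.3 CPM per kb, and UNC13D furthest left, at 0.0194 and 0.0280 CPM per kb.

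Between the libraries the set as a whole differed little. Of the 47 genes, 23 were higher and 24 lower in high glucose, and the median log2 ratio of high over low glucose was -0.01, against -0.01 over all 13052 genes at a mean of 1 CPM or more. The middle 50% of the ratios ran from -0.13 to 0.12 in the set and from -0.14 to 0.10 over all genes. No gene of the set (0 of 47) passed 1.5-fold in either direction, where 3.68% of all genes did. A log2 ratio of 0.32 in size was passed by 2 genes, STX8 and SYT5, both lower in high glucose, where 12.6% of all genes did. The counting interval of the ratio excluded 1 for 18 of the 47 (38.3%), against 31.7% of all genes, so the share lay near that of the transcriptome. Split by direction, 10 of the 47 were higher in high glucose beyond counting error, against 15.8% of all genes. Another 8 of the 47 were lower, against 16.0% of all genes. The share beyond counting error depends on how many counts a gene has, and among genes averaging 10 CPM or more it was 17 of 37, against 38.4% of all genes at that level. The differences were thus small, with log2 ratios from -0.56 to 0.27. With 1 library per concentration none of them has a replicate check.

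**Figure D2:**
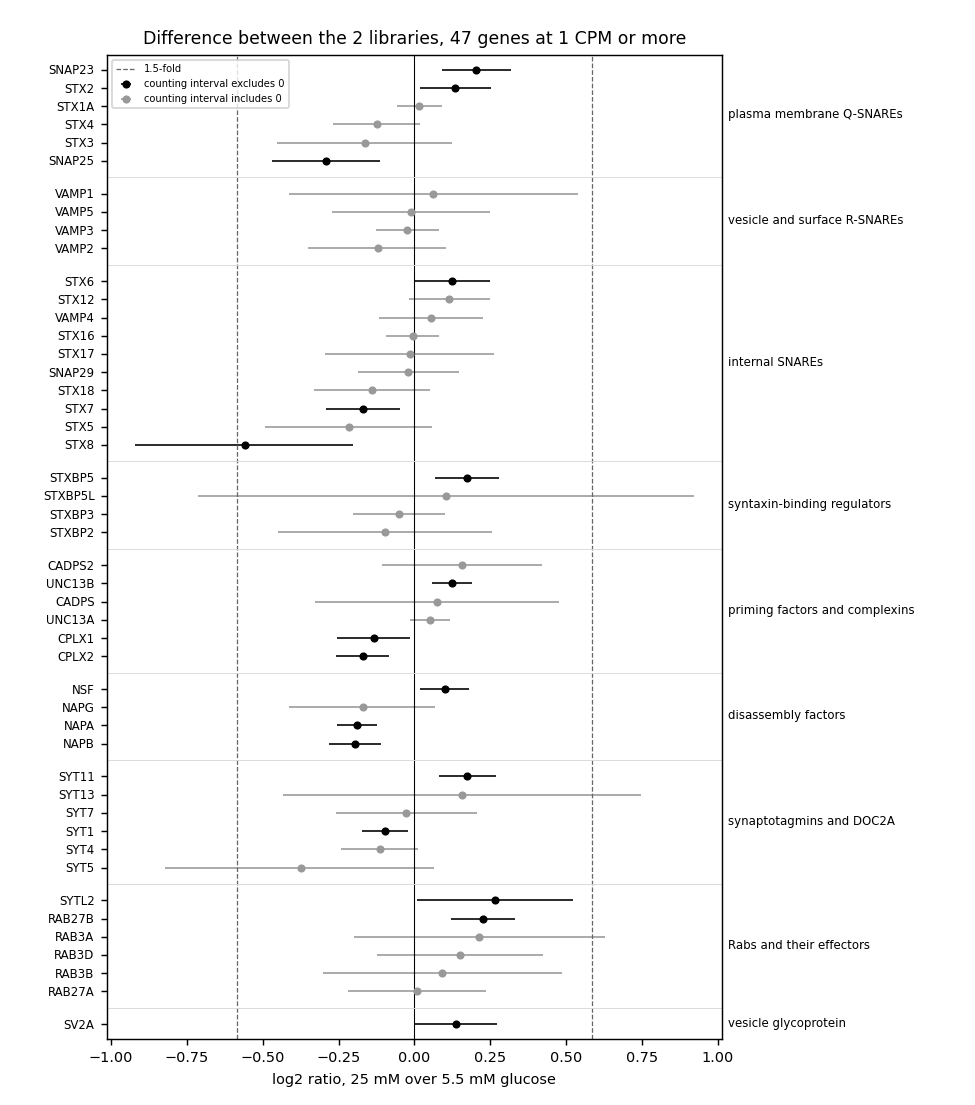
Log2 ratio of high (25 mM) over low (5.5 mM) glucose for the 47 genes at a mean of 1 CPM or more, by role, with 95% counting intervals as bars, black where the interval excludes 0 and grey where it does not. The dashed lines mark 1.5-fold, which none of the 47 points passes, and the 18 black points divide into 10 to the right of 0 and 8 to the left.

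**Figure D3:**
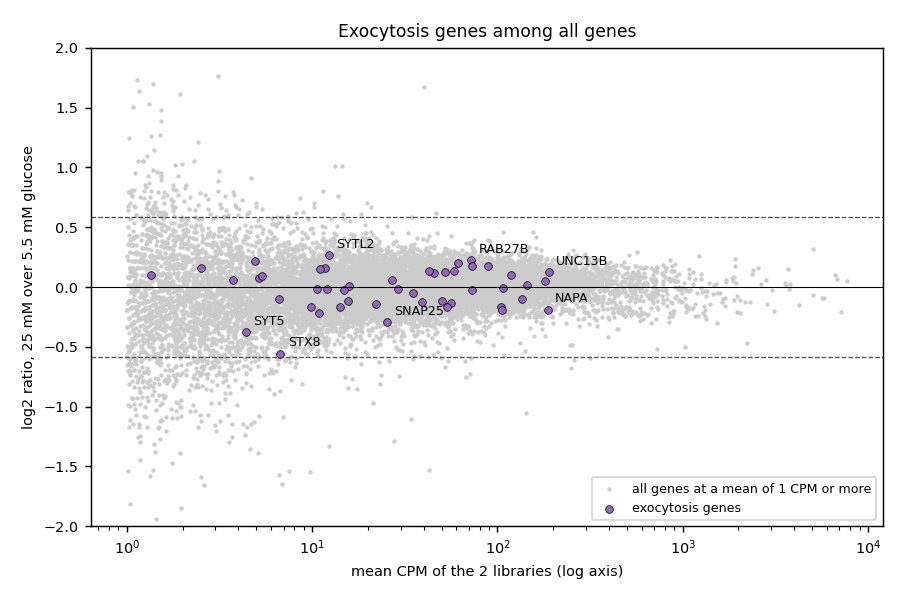
Log2 ratio of high over low glucose against the mean CPM of the 2 libraries (log axis) for the 13052 genes at 1 CPM or more (grey) and the 47 exocytosis genes among them (purple). The dashed lines mark 1.5-fold, and 13 genes outside the vertical axis, none of them in the set, are not drawn. The purple points stay between -0.56 and 0.27.

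At the plasma membrane, STX1A was the leading Q-SNARE per kb of merged exons and had nearly the same level in both libraries, while the balance between SNAP25 and SNAP23 differed. STX1A, the syntaxin of regulated exocytosis in neurons and endocrine cells, was at 144 CPM in low glucose (interval 139 to 149) and 145 CPM in high glucose (140 to 151), a log2 ratio of 0.02 (-0.06 to 0.09). This equals 38.9 and 39.3 CPM per kb, 2.62 times the level of STX2 per kb in low and 2.41 times in high glucose. With the median protein-coding transcript as the length SNAP23 led instead, at a mean of 108 CPM per kb against 94.1 for STX1A. That length is 568 bases for SNAP23, against 2687 for its longest transcript. It is a median over all annotated protein-coding transcripts, with incomplete ones not removed, so levels on that scale can be too high. The gene BUD23, on the opposite strand, overlaps 17.9% of the exon bases of STX1A. STX2, a syntaxin found in many epithelia, was at 55.3 CPM (52.2 to 58.5) and 60.8 CPM (57.3 to 64.3), a log2 ratio of 0.14 (0.02 to 0.25). The interval for STX2 excluded 0 and that for STX1A did not, and STX2, SNAP25 and SNAP23 were the 3 of 6 genes here beyond counting error, against 31.7% of all genes. STX4 and STX3, which carry fusion at the basolateral and apical surface of polarised cells, were lower per kb than both (9.97 and 9.15 CPM per kb for STX4, 1.59 and 1.42 for STX3), and their ratios were within counting error. The order of STX4 and STX2 turned with other lengths, to a mean of 24.6 CPM per kb for STX4 against 17.4 for STX2 with the longest transcript, and 36.6 against 21.2 with the median protein-coding transcript. As shares of the counts of the 4 surface syntaxins, STX1A took 57.5% in each library (56.1% to 58.8% and 56.1% to 58.9%).

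SNAP25, the partner of STX1A in neurons and endocrine cells, had 27.95 CPM in low glucose (25.8 to 30.3) and 22.8 CPM in high glucose (20.8 to 25.1). SNAP23, its widely expressed paralog, had 57.1 CPM (53.9 to 60.3) and 65.7 CPM (62.1 to 69.4). The 2 paralogs thus stood in opposite directions, and neither pair of intervals overlapped. The log2 ratio was -0.29 for SNAP25 (-0.47 to -0.11) and 0.20 for SNAP23 (0.09 to 0.32). SNAP25 therefore made up 32.9% of the counts of the pair in low glucose (30.7% to 35.1%) and 25.8% in high glucose (23.7% to 27.9%), a share that does not depend on how the libraries are scaled. Per kb, SNAP23 was at 1.16 times SNAP25 in low glucose (1.05 to 1.28) and 1.64 times in high glucose (1.47 to 1.83). With the longest transcript as the length its mean was 2.03 times SNAP25. The median protein-coding transcript gave 8.72 times, a value that rests on a length of 568 bases for SNAP23 against 2050 for SNAP25. Other genes on the opposite strand overlap 27.4% of the exon bases of SNAP23, whose reads cannot be told apart without strand, and it has an annotated pseudogene. RSEM divides reads that match several loci, and estimated counts were not whole within 0.1 in at least 1 library for SNAP23, VAMP2, STX6 and RAB3D and, above 100 CPM, for STX1A, NSF, NAPA and SYT1. STX1A was at 4.67 times SNAP25 per kb in low and 5.78 times in high glucose.

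Among the R-SNAREs that act on vesicles and at the surface, VAMP3 led and 0 of 4 genes at 1 CPM or more differed beyond counting error, against 31.7% of all genes. VAMP3, also called cellubrevin, was at 73.1 CPM (69.5 to 76.8) in low and 71.96 CPM (68.2 to 75.8) in high glucose, a log2 ratio of -0.02 (-0.13 to 0.08). VAMP2, the R-SNARE of synaptic vesicles and many hormone granules, was at 16.2 CPM (14.5 to 17.97) and 14.9 CPM (13.2 to 16.7), a log2 ratio of -0.12 (-0.35 to 0.11). Another gene overlaps 13.2% of VAMP2 exon bases on the same strand. Per kb, VAMP3 stood at 5.34 times VAMP2 in low glucose (4.76 to 6.01) and 5.72 times in high glucose (5.04 to 6.52). The gap held with other lengths, at 4.56 times with the longest transcript and 3.47 times with the median protein-coding transcript. Windows that share 34 of 39 bases, as shown above, thus belong to genes read at very different levels. VAMP5, known from muscle, was at 14.7 and 14.6 CPM per kb, and VAMP1 at 1.02 and 1.06 CPM per kb. VAMP8, the R-SNARE of exocrine granules and late endosomes, had 6 and 4 estimated counts (0.288 and 0.217 CPM), near the limit that a count of 0 allows. As shares of the counts of VAMP1, VAMP2, VAMP3 and VAMP8, VAMP3 took 78.4% (76.6% to 80.2%) and 79.2% (77.2% to 81.1%). VAMP5, with 262 and 233 counts, was not part of these totals, and with it the shares of VAMP3 would be lower.

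SNAREs of the Golgi, endosomes and endoplasmic reticulum were all present, and 3 of these 10 genes differed beyond counting error, against 31.7% of all genes. STX16, a syntaxin of the trans-Golgi network, was the highest per kb at 21.0 and 20.9 CPM per kb (107 and 106 CPM, log2 ratio -0.01, -0.09 to 0.08), although 28.4% of its exon bases are shared with the read-through gene STX16-NPEPL1. STX8, a late endosomal SNARE, showed the largest difference among the 47 genes at 1 CPM or more. Its level was 8.02 CPM in low glucose (6.86 to 9.29) and 5.45 CPM in high glucose (4.45 to 6.58), from 174 and 106 counts, so the library intervals did not overlap, and it has an annotated pseudogene. The log2 ratio of -0.56 (-0.92 to -0.20) has an interval that includes 1.5-fold and also much smaller folds. STX7, which pairs with STX8 on late endosomes, was lower as well, at 56.3 CPM (53.2 to 59.5) and 50.1 CPM (46.99 to 53.3), a log2 ratio of -0.17 (-0.29 to -0.05). STX6, of the trans-Golgi network and maturing granules, was higher in high glucose, at 49.6 CPM (46.7 to 52.6) and 54.1 CPM (50.8 to 57.4). Its log2 ratio was 0.12, with a lower bound of 0.000436, so it barely passed. The remaining 7 (STX5, STX12, STX17, STX18, SNAP29, VAMP4 and STX16) had ratios within counting error, from -0.22 for STX5 to 0.11 for STX12.

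Of the syntaxin-binding regulators, STXBP5 was the highest per kb and the 1 of 4 genes at 1 CPM or more that differed beyond counting error, against 31.7% of all genes. STXBP5, or tomosyn, holds syntaxin and SNAP25 in a complex that excludes VAMP, and was at 68.6 CPM in low glucose (65.1 to 72.1) and 77.3 CPM in high glucose (73.4 to 81.3), a log2 ratio of 0.17 (0.07 to 0.28). STXBP3, a Munc18 protein that works with STX4, was at 35.8 and 34.6 CPM, within counting error. Per kb STXBP5 was 1.07 times STXBP3 in low glucose (0.984 to 1.17) and 1.254 times in high glucose (1.14 to 1.38), and the order turned, to 0.572 times, with the longest transcript as the length. STXBP2 (6.87 and 6.43 CPM) and STXBP5L (1.301 and 1.40 CPM) were within counting error too, and STXBP6 had 9 and 12 counts.

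Among the priming factors and complexins 3 of 6 genes at 1 CPM or more differed beyond counting error, against 31.7% of all genes, with UNC13B higher in high glucose and both complexins lower. UNC13B, a Munc13 protein that opens syntaxin for assembly, was higher in high glucose, at 180 CPM (175 to 186) and 197 CPM (190 to 203), a log2 ratio of 0.12 (0.06 to 0.19). UNC13A, the main neuronal Munc13, was at 177 CPM (172 to 183) and 184 CPM (178 to 190), and its ratio of 0.05 (-0.01 to 0.12) was within counting error. The 2 Munc13 genes were close in counts, with UNC13A at 49.5% (48.4% to 50.6%) and 48.3% (47.1% to 49.4%) of the counts of the UNC13 genes, and UNC13D, known from cytotoxic granules, had 3 and 4 counts. CPLX1 and CPLX2, the complexins, were both lower in high glucose. CPLX1 was at 58.6 CPM (55.4 to 61.9) and 53.4 CPM (50.2 to 56.7), a log2 ratio of -0.13 (-0.25 to -0.02). CPLX2 was at 111 CPM (107 to 116) and 98.6 CPM (94.3 to 103), a log2 ratio of -0.17 (-0.26 to -0.08). Their shares of the complexin counts stayed alike, CPLX1 at 34.5% (33.0% to 36.1%) and 35.1% (33.4% to 36.9%). CPLX1 led the group per kb, at 24.2 and 22.1 CPM per kb, and its mean was 1.23 times that of CPLX2 with the longest transcript. With the median protein-coding transcript as the length it stood at 0.151 times CPLX2, so the order depends on the length used. The median length is 567 bases for CPLX2, against 5023 for its longest transcript. The CAPS proteins, which prime dense-core granules, were within counting error, CADPS2 at 11.1 and 12.4 CPM and CADPS at 5.03 and 5.30 CPM.

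Of the factors that take SNARE bundles apart, NAPA and NAPB were lower and NSF higher in high glucose beyond counting error. That is 3 of 4 genes, against 31.7% of all genes. The shares are at unlike depth, as these 3 averaged 187, 106 and 118 CPM, and all genes had a median of 27.8 CPM. NAPA, NAPB and NSF were among the more abundant of the set per kb (percentiles 87.7, 80.0 and 83.0 of the 11600 genes above). NAPG, at 2.68 and 2.38 CPM per kb, lay under the median. NAPA, or alpha-SNAP, was at 199 CPM (193 to 205) in low and 174 CPM (169 to 180) in high glucose, a log2 ratio of -0.19 (-0.25 to -0.12). NAPB, the beta form enriched in brain, was at 113 CPM (108 to 117) and 98.5 CPM (94.1 to 103), a log2 ratio of -0.20 (-0.28 to -0.11). NSF, the ATPase that they bring to the bundle, was at 114 CPM (110 to 119) and 122 CPM (118 to 127), a log2 ratio of 0.10 (0.02 to 0.18). NAPG, the gamma form, was at 14.97 and 13.3 CPM with a ratio of -0.17 (-0.41 to 0.07), within counting error. Per kb NAPA was at 1.49 times NSF in low glucose (1.42 to 1.57) and 1.22 times in high glucose (1.16 to 1.29), while the shares of the 3 adaptors stayed alike, NAPA at 60.9% in each (59.7% to 62.0% and 59.7% to 62.2%). Other genes overlap 12.9% of NAPA exon bases on the same strand and 16.9% on the opposite strand, and NSF and NAPG have annotated pseudogenes.

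**Figure D4:**
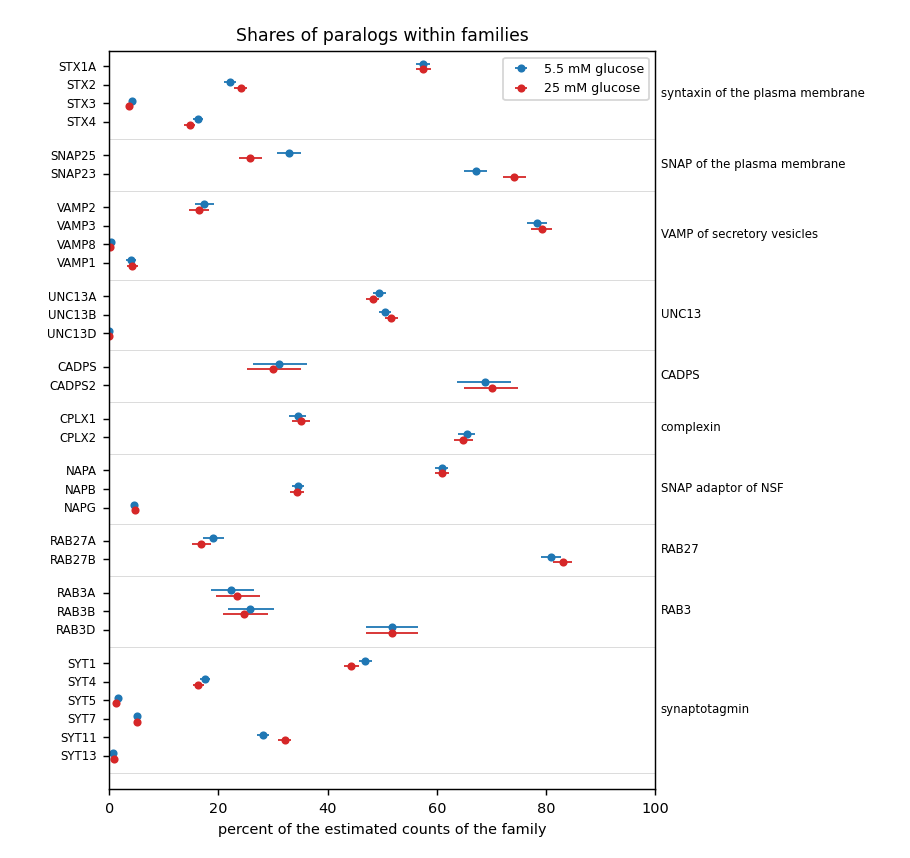
Share of each paralog in the estimated counts of its family (percent, horizontal axis) in the low (blue) and high (red) glucose library, with 95% exact binomial intervals. Intervals of the libraries stand apart for SNAP25 and SNAP23 (32.9% against 25.8% for SNAP25) and for SYT1 and SYT11, and overlap for the other genes drawn.

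Synaptotagmins carry C2 domains, which in SYT1, SYT5 and SYT7 bind calcium, and 2 of the 6 genes at 1 CPM or more differed beyond counting error, against 31.7% of all genes. SYT1, the fast calcium sensor of synaptic vesicles, was at 140 CPM in low glucose (135 to 145) and 131 CPM in high glucose (126 to 136), a log2 ratio of -0.10 (-0.17 to -0.02). SYT11, which does not sense calcium, was higher in high glucose, at 83.9 CPM (80.1 to 87.9) and 94.7 CPM (90.5 to 99.2), a log2 ratio of 0.17 (0.08 to 0.27). The pair therefore shifted against each other within the counts of the 6 synaptotagmins. SYT1 went from 46.9% (45.7% to 48.2%) in low to 44.4% (43.1% to 45.7%) in high glucose, with bounds that nearly meet, and SYT11 from 28.1% (27.0% to 29.2%) to 32.1% (30.9% to 33.3%). SYT1 was the highest per kb in both libraries, at 21.6 and 20.2 CPM per kb, followed by SYT11 at 16.0 and 18.1. SYT4, a granule synaptotagmin, was at 11.8 and 10.9 CPM per kb, with a ratio of -0.11 (-0.24 to 0.01). With the median protein-coding transcript as the length it stood above SYT11 (a mean of 43.1 against 17.0 CPM per kb). That length is 1165 bases for SYT4, against 4110 for its longest transcript. SYT7, the high-affinity sensor of hormone granules, was at 15.1 and 14.8 CPM with a ratio of -0.03 (-0.26 to 0.21). SYT5 had the second largest difference among the genes of the set at 1 CPM or more, at 4.94 CPM (4.04 to 5.95) and 3.81 CPM (2.98 to 4.77). With 107 and 74 counts, however, its ratio of -0.37 (-0.82 to 0.07) was within counting error. SYT13 was at 2.36 and 2.63 CPM, and DOC2A, a soluble C2-domain protein, had 8 and 13 counts.

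All 6 Rab and effector genes of the set at 1 CPM or more had a log2 ratio above 0, with a median of 0.18 (over all genes 6340 of 13052 were above 0), and 2 of them were higher beyond counting error, against 15.8% of all genes. Outside the set the direction was mixed, as the RAB27 effector MLPH was lower beyond counting error (30.6 and 26.2 CPM, log2 ratio -0.22, -0.39 to -0.05) and RAB3IP higher (0.25, 0.12 to 0.38), while SYTL3, RPH3AL, RAB3C, SYTL5 and MYRIP were within it, from -0.15 to 0.06. RAB27B, a Rab that docks granules, was the highest per kb, at 8.95 and 10.5 CPM per kb. Its level was 66.5 CPM (63.1 to 70.0) in low and 77.8 CPM (73.9 to 81.8) in high glucose, a log2 ratio of 0.23 (0.12 to 0.33). SYTL2, a synaptotagmin-like effector of RAB27, was at 11.2 CPM (9.78 to 12.6) and 13.4 CPM (11.8 to 15.1), a log2 ratio of 0.27 (0.01 to 0.52). Of the genes at a mean of 1 CPM or more in the set, SYTL2 had the highest ratio and RAB27B the next. The other 4 were within counting error, RAB3A at 4.52 and 5.25 CPM, RAB3B at 5.21 and 5.55 CPM, RAB3D at 10.5 and 11.6 CPM (23.8% of its exon bases overlapped on the opposite strand), and RAB27A at 15.7 and 15.8 CPM. RAB27B made up 80.9% of the RAB27 counts in low glucose (79.0% to 82.7%) and 83.2% in high glucose (81.4% to 84.8%), intervals that overlap. SYTL1, under 1 CPM, went the other way with 17 and 9 counts, a log2 ratio of -0.75 whose interval (-2.11 to 0.49) includes 0. SV2A, a glycoprotein of synaptic and endocrine vesicles, was at 40.6 CPM (37.9 to 43.3) and 44.6 CPM (41.7 to 47.7), a log2 ratio of 0.14 with a lower bound of 0.000225.

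Among other genes of the exocytosis and SNARE pathway, 11 of 53 (20.8%) differed beyond counting error, against 31.7% of all genes. Of 81 further genes listed, 65 had a row and 53 averaged 1 CPM or more, and of these 24 were higher and 29 lower in high glucose, with a median log2 ratio of -0.01. Counting intervals excluded 1 for 5 higher genes, SEC22B, EXOC6, VPS45, RAB3IP and STXBP4, against 15.8% of all genes, and for 6 lower genes, SCAMP3, EXOC5, USE1, BNIP1, MLPH and VPS33B, against 16.0% of all genes. None of them (0 of 53) passed 1.5-fold, against 3.68% of all genes. The highest per kb was YKT6, an R-SNARE of the Golgi, at 64.9 and 67.3 CPM per kb. SYTL5, a further synaptotagmin-like effector of RAB27, followed at 50.1 and 52.0 CPM per kb, against 0.991 and 1.19 CPM per kb for SYTL2. SCAMP3, a carrier membrane protein, came next at 37.9 and 34.7 CPM per kb, with a log2 ratio of -0.12 (-0.22 to -0.03).

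The genes were also compared by their promoters, taken as windows of 300 bases around the RefSeq start site (GRCh38.p14), which were found for 40 of the 47 genes at 1 CPM or more. Their median GC content was 66.7%, against 65.3% for the 9165 genes with a window and a mean of 1 CPM or more. The canonical E-box CACGTG, read on both strands, occurred in 6 of the 40 windows (15%), those of STX2, STX6, SNAP29, STXBP2, UNC13A and NAPA, against 10.3% of the 9165 and 7.43% of all 27305 windows. These 6 genes did not share a direction, with STX2 and STX6 higher and NAPA lower in high glucose beyond counting error. The cAMP response element TGACGTCA occurred in 2 of 40 windows (5%), those of STX12 and STXBP3, against 3.43% of the 9165. The GC box GGGCGG occurred in 32 of 40 (80%), against 70.7% of the 9165. A match of letters is a description of the window only.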

How the data were processed

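Libraries of polyadenylated RNA were sequenced by the authors, who trimmed reads with Trim Galore 0.5.0, aligned them with STAR 2.6.0, estimated counts with RSEM 1.3.1 and normalised in edgeR, per the submitters' processing notes. The deposited CPM of both libraries were used. The columns of log2 CPM, of the authors' means and of the authors' comparison of the libraries (2 of each) were not used. Each CPM holds a prior of 0.0121, and without it each library adds to the nominal CPM total, so no TMM factor is visible. The worth of 1 count, 0.0460 CPM in low and 0.0514 CPM in high glucose, was read from the steps of low values. As 75.4% and 76.2% of values under 10 CPM were whole within 0.05, no count model was run. TMM factors of 0.998 and 1.002 were computed and applied, with the prior kept, in scipy 1.17.1 and numpy 2.4.6 (Python 3.11.15, tables in pandas 2.3.3, figures in matplotlib 3.10.9), after tests on simulated data. A gene entered comparisons of the libraries at a mean of at least 1 CPM. No p-value was computed, because each concentration has 1 library.

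Exon lengths came from GENCODE release 29 (the study used release 28 on the same assembly), which held 14642 (73.3%) of the symbols. Values were given for the highest gene per kb of each role group, for genes whose interval excludes a ratio of 1, for STX1A, SNAP25 and VAMP2, and for the 3 highest other pathway genes, and further genes by count and range, or by value where singled out after their values were seen. The paralog families, sequence windows and promoter motifs were also chosen after values were seen. Some items are not reported here. The members and lists were chosen with earlier results of these data known. Alternatives were library totals, median-of-ratios factors, a pseudocount of 1 CPM, the prior removed, other folds and filters, and other lengths.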

Additional observations from a re-analysis of the deposited data

How the results depend on the processing

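No paired analysis was possible because the libraries, 1 per concentration, form no pairs. Each log2 ratio was recomputed with library totals alone, with median-of-ratios factors, with a pseudocount of 1 CPM and with the prior removed, and all 208 values for the 52 genes stayed within the counting interval of the first value. Neither other scaling changed the sign of any of the 52 ratios (0 sign changes). Of 18 summary values under other settings, 16 stayed alike, taken as within 1.5 times for a count and within 1 SD of the ratios for a median. Among these 16, the genes detected went from 47 to 42 with a threshold of 5 CPM, those beyond counting error from 18 to 17 at a mean of 10 CPM or more, and the median log2 ratio ran from -0.01 to 0.00. The number past the fold went from 0 to 2 with a lower fold, a log2 ratio of 0.32 in size (STX8 and SYT5), and from 0 to 2 with no filter on low values (DOC2A and SYTL1, both at 17 counts or fewer), both by construction. Levels per kb depended on the length used: of 52 genes, 37 left their counting interval with the longest transcript and 49 with the median protein-coding transcript. The gene with the highest level per kb stayed the same in 7 of the 8 role groups with more than 1 gene at 1 CPM or more with the longest transcript. With the median protein-coding transcript it did so in 6 of 8, where SNAP23 replaced STX1A and CPLX2 replaced CPLX1. Incomplete transcripts were not removed from that median, which was short for SNAP23 (568 bases) and CPLX2 (567 bases). Depth limited the 5 genes of the set under 1 CPM, whose intervals all included a ratio of 1.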
